A study of Danio rerio with 15 samples.

Results

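The proteasome genes of the zebrafish brain were followed across a dietary selenium experiment. A gene was taken as a member when its current symbol had the form psma to psmg followed by a number, and the brightest probe set stood for each gene. This gave 49 genes with 57 probe sets, out of 8793 genes and 15502 probe sets measured. Among the symbols of the gene table, 58 have this form, and no probe set was assigned to psma3, psma6b, psmb11a, psmb11b, psmd11a, psmd14, psme4a, psme4b or psmg4. psmc3ip matches by its letters alone: it encodes a cofactor of meiotic recombination and no proteasome protein, so it was counted apart, which left 48 proteasome genes. Of these, 5 were inducible beta subunits (psmb8a, psmb9a, psmb10, psmb12 and psmb13a), which are described apart from the other 43. The members were chosen by a rule on names and not by their values, though with earlier results of these data known.

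The proteasome is the chamber in which cells break down proteins that have been tagged with ubiquitin. Its 20S core is a stack of rings of alpha and beta subunits, and the beta subunits psmb5, psmb6 and psmb7 carry the cutting sites. The 19S cap, built of ATPases (psmc genes) and non-ATPase subunits (psmd genes), recognises the ubiquitin tag and unfolds the substrate. Interferon-stimulated and immune cells replace the cutting subunits with inducible ones and use the activator made of psme1 and psme2, a form called the immunoproteasome that makes peptides for display to T cells. Neurons depend on the constitutive form for synaptic protein turnover. In mammals, cells that are short of proteasome activity raise proteasome genes together through the transcription factor NFE2L1, and oxidative stress can do so in part through its relative NFE2L2.

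All fish were adult zebrafish (Danio rerio) of the strain Transgenic Mosaic 1, 1 year old and sexually mature. For 14 days they received food with 1.4 ppm selenium (control) or food in which sodium selenite raised selenium to 5.6 ppm (called selenium). RNA of whole brains was measured on Affymetrix arrays, 1 fish per array. The groups were 3 control females, 4 selenium females, 4 control males and 4 selenium males, and each replicate is a fish of its own. The design describes 8 fish per diet with equal numbers of each sex, and the remaining control female was not analysed here. The control diet also contained selenium, so the comparison is of 2 selenium levels and not of selenium with none. In whole-brain RNA, fewer cells of a type and less RNA per cell cannot be told apart.

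The values are log2 signals, on which a difference of 1 is a doubling. The 15 arrays carried the marks of brain tissue: 13 measured neuronal markers, among them snap25a, elavl4 and gap43, had mean signals from 10.26 to 13.05, against 4.09 to 4.21 for the mean of the dimmest probe sets. The arrays also held signal of neighbouring tissues, unequally. The mean of 30 skeletal muscle genes was 8.97 in male selenium fish 1, 7.21 in male selenium fish 3, 6.64 in male selenium fish 2 and 5.64 to 6.43 in the other 12 fish. The mean of 34 retina and lens genes was 7.76 in male selenium fish 2 and 7.23 in male selenium fish 4, and 4.83 to 6.31 in the other 13. The difference between the 3′ and 5′ probe sets of gapdh, a measure of RNA integrity, ranged from 0.97 to 1.61 in control females, 1.33 to 1.84 in selenium females, 0.89 to 1.26 in control males and 0.66 to 1.17 in selenium males.

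The mean of the 43 genes other than the inducible beta subunits was high in all 15 brains. These 43 genes, which include the activators psme1 and psme2, had mean signals from 6.93 (psma6l) to 12.22 (psmb7). Their mean per fish stayed between 9.96 and 10.14, and was 10.11 ± 0.03 (SD, n = 3) in control females, 10.09 ± 0.03 (SD, n = 4) in selenium females, 10.02 ± 0.06 (SD, n = 4) in control males and 10.04 ± 0.03 (SD, n = 4) in selenium males. The ranges overlapped between the diets in each sex, at 10.09 to 10.14 and 10.05 to 10.12 in control and selenium females. In control and selenium males they were 9.96 to 10.09 and 9.99 to 10.06, so most females lay above all males. The mean over all genes stayed between 7.77 and 7.83 per fish. Such a mean can hide genes that move apart within a fish. Female selenium fish 2 had the highest psme1, psme2 and psma6l of all fish (10.54, 9.76 and 8.10). The same fish had the lowest value of several core and cap genes, among them psmb7 (11.98), psmc6 (10.40), psmd6 (11.43) and psmd12 (9.22). The SD between fish of a group had a median of 0.12 over the 48 genes, against 0.17 over all 8793 genes. The steadiest were psmc2, an ATPase of the cap (0.05), and psmb2, a beta subunit (0.06). The least steady were the activator genes psme1 (0.63) and psme2 (0.42), the alpha-like gene psma6l (0.43) and the inducible genes psmb8a (0.52), psmb9a (0.36) and psmb12 (0.36). Most members were bright, and their SDs were not set against genes of like signal. psmd3 and psmg2, with mean signals of 7.25 and 7.37, each had an SD of 0.25, above the median of all genes.

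**Figure D1:**
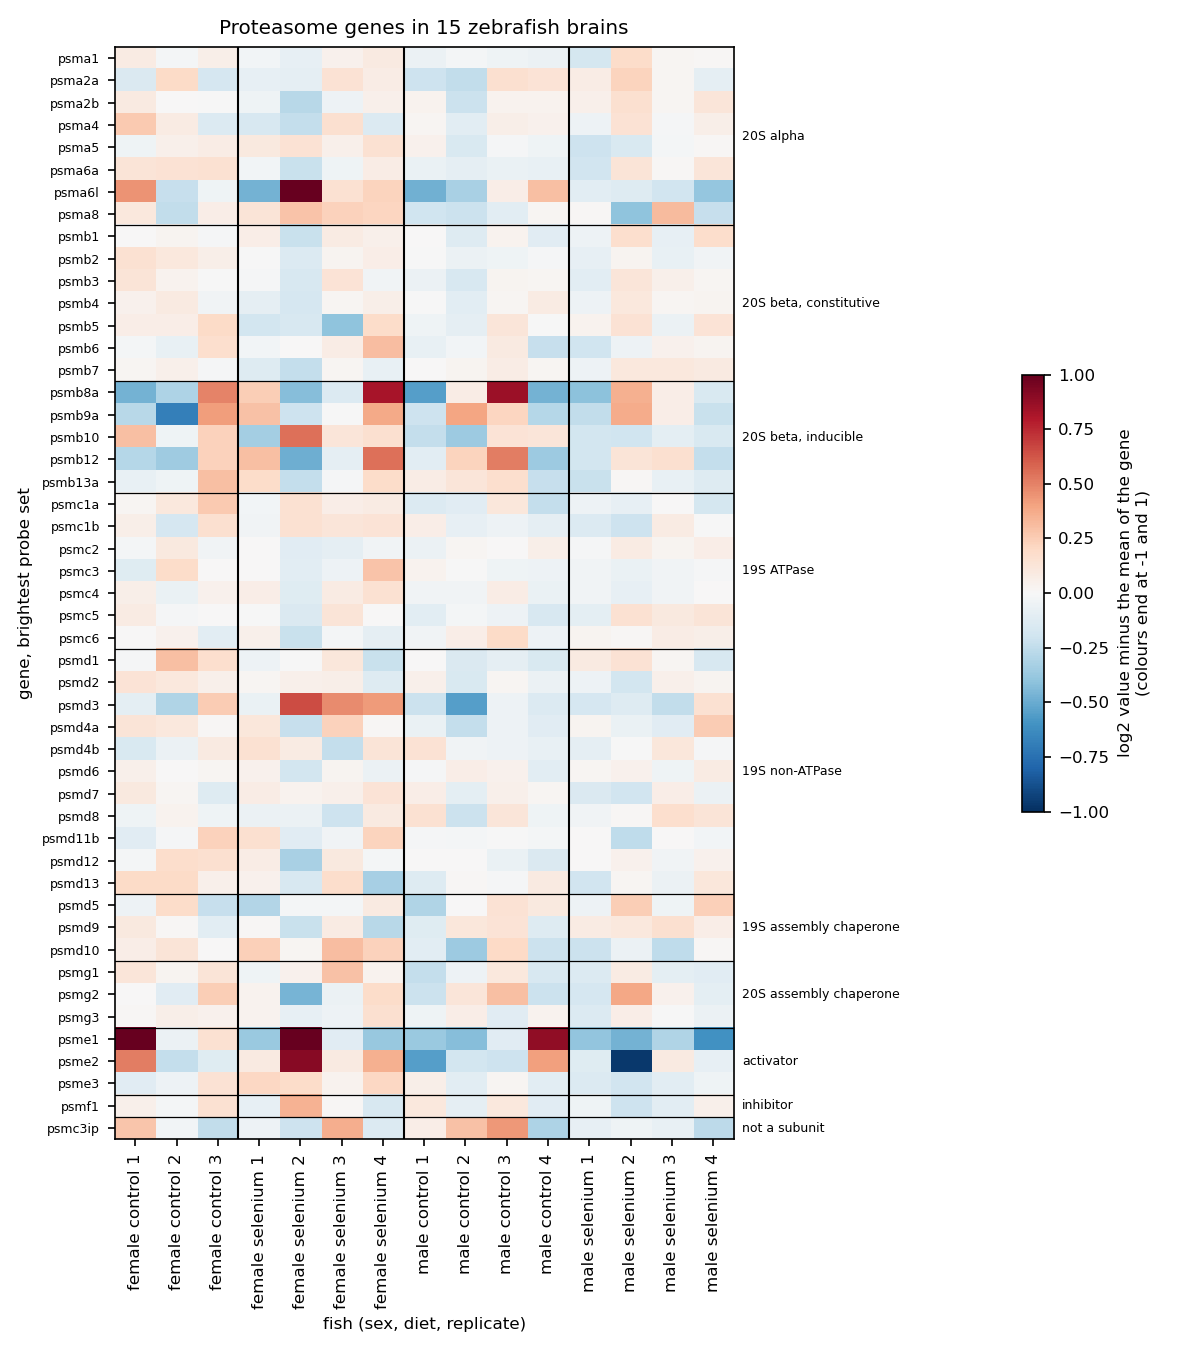
Log2 value of each of the 49 genes in each of the 15 fish, minus the mean of that gene over all fish; columns are fish grouped by sex and diet (black vertical lines), and genes are ordered by role. Colours end at -1 and 1. Most core and cap genes are pale in every column, while psme1, psme2, psma6l and the inducible genes psmb8a, psmb9a and psmb12 vary strongly within groups.

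How far members varied together was described over the 15 fish. After each group's mean was removed, the median correlation between members of the alpha ring and the constitutive beta ring was 0.30 (105 pairs of genes), against 0.067 for the 153 pairs of cap ATPases and non-ATPases and 0.0098 for all pairs of the 8793 genes. These are descriptions over pairs of genes that share the same 15 arrays. Most genes of the 2 rings are bright, and pairs of genes of like signal were not examined. Female selenium fish 2 was the lowest fish for several of the core genes, among them psmb1, psmb2, psmb4 and psmb7. The part of this fish in the correlations was not tested.

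Whether the selenium diet changes the proteasome was asked in each sex. No member passed the threshold (adjusted p under 0.05 with limma over 15502 probe sets) in females, in males, in their mean, or in the difference between the sexes, and neither did any other probe set on the array: 0% were called in each of these 4 comparisons. For the median member the 95% interval extended 0.21 log2 units each way in females, and 0.20 in males. For single members, the intervals allow diet differences from -1.15 to 0.995 in females and from -1.30 to 0.70 in males, and the widest of these belong to psme1 and psmb8a.

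In females 18 of the 48 genes had higher values on selenium and 30 lower, with a median difference of -0.03, while centred arrays gave 31 higher and 17 lower and put the median at 0.03. The direction of the family in females therefore depends on the scaling. Centring added the same 0.06 to every gene, so it did not change how the family stood against the other genes. Before centring, 50.9% of all genes were higher in selenium females, and the median over all genes was 0.0034, against -0.03 for the family. At an unadjusted p under 0.05, limma named 3 of the 48 members, against 7.92% of all genes. The gapdh 3′ minus 5′ difference was higher in selenium females than in control females, at 1.59 ± 0.24 (SD, n = 4) and 1.19 ± 0.37 (SD, n = 3), and with it as a covariate the median became 0.02. Muscle signal moved with the diet in females too: 25 of 30 muscle genes were higher on selenium, and the list mean was 5.64 to 5.93 in control females and 6.10 to 6.43 in selenium females, without overlap. With the muscle and retina means as covariates the median of the family was -0.0076.

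The member with the smallest p in females was psmd3, a scaffold subunit of the lid of the 19S cap. Its values were 7.15, 6.95 and 7.50 in control females and 7.18, 7.89, 7.72 and 7.67 in selenium females. Fish 2, 3 and 4 of the selenium group lay above all 3 controls, and fish 1 lay among them. The difference was 0.42 ± 0.18 (SE), a ratio of 1.34, with an unadjusted p of 0.033 and an adjusted p of 0.57 in limma. In males psmd3 gave 7.03, 6.69, 7.19 and 7.11 on the control diet and 7.08, 7.12, 6.9998 and 7.40 on selenium, which overlap, with a difference of 0.14 ± 0.17 (SE). Averaged over the sexes the psmd3 difference was 0.28 ± 0.12 (SE), and this was the smallest p of the family in that comparison (unadjusted 0.036, adjusted 0.94, limma).

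On the side of lower values in selenium females stood psma6a, an alpha-ring subunit. Control females gave 10.79, 10.81 and 10.82 and selenium females 10.64, 10.44, 10.62 and 10.74, so the groups did not overlap. The difference was -0.20 ± 0.09 (SE), with an adjusted p of 0.59 in limma, and -0.13 with the gapdh measure as a covariate. Control males lay between 10.57 and 10.60, below the control females, and selenium males between 10.47 and 10.80, with a difference of 0.09 ± 0.08 (SE).

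psmb5 encodes the subunit with the chymotrypsin-like cutting site. Its values were 10.39, 10.39 and 10.51 in control females and 10.13, 10.16, 9.91 and 10.50 in selenium females. Fish 1, 2 and 3 of the selenium group were below all controls and fish 4 was level with the highest of them. The difference was -0.25 ± 0.11 (SE), a ratio of 0.84 (unadjusted p 0.043, adjusted p 0.59, limma), and in males it was 0.07 ± 0.10 (SE). Of the other cutting subunits psmb6, with the caspase-like site, differed by 0.07 (95% interval -0.15 to 0.29) in females and 0.02 (-0.19 to 0.22) in males. psmb7, with the trypsin-like site, differed by -0.12 (-0.28 to 0.03) in females and 0.03 (-0.11 to 0.17) in males. Signs in males turned under some alternatives for psmb5 and psmb6, so no direction is read from them.

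The next members by p in females were psme3, psmd1 and psmd13. psme3, the activator of nuclear proteasomes, was 10.04, 10.10 and 10.30 in control females and 10.36, 10.34, 10.19 and 10.36 in selenium females. Selenium fish 3 lay within the control range and the other 3 above it. The difference was 0.16 ± 0.08 (SE), with an adjusted p of 0.62 in limma, and 0.08 with the gapdh measure as a covariate. psmd1, the largest scaffold subunit of the cap, differed by -0.19 ± 0.10 (SE), and psmd13, a lid subunit, by -0.21 ± 0.11 (SE, -0.14 with the gapdh measure as a covariate), with ranges that overlapped in both.

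By role, the constitutive beta ring had 6 of 7 genes lower in selenium females (median -0.08), but 5 of 7 after centring the arrays (median -0.02). Female selenium fish 2 had the lowest value of all 15 fish for psmb1, psmb2, psmb4 and psmb7. For psmb3 it was level with the lowest fish, and for psmb5 and psmb6 other fish were lowest. The count without this fish was not made. The alpha ring was split at 4 higher and 4 lower, the ATPases at 3 and 4, and the non-ATPase subunits at 4 and 7. The 3 chaperones that assemble the core (psmg1, psmg2 and psmg3) had differences from -0.12 to -0.01. The 3 chaperones that assemble the cap (psmd5, psmd9 and psmd10) had differences from -0.10 to 0.13. psmf1, an inhibitor of the core, differed by -0.03. Within each of these roles at most 1 gene had an unadjusted p under 0.05, and none passed after adjustment in limma.

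**Figure D2:**
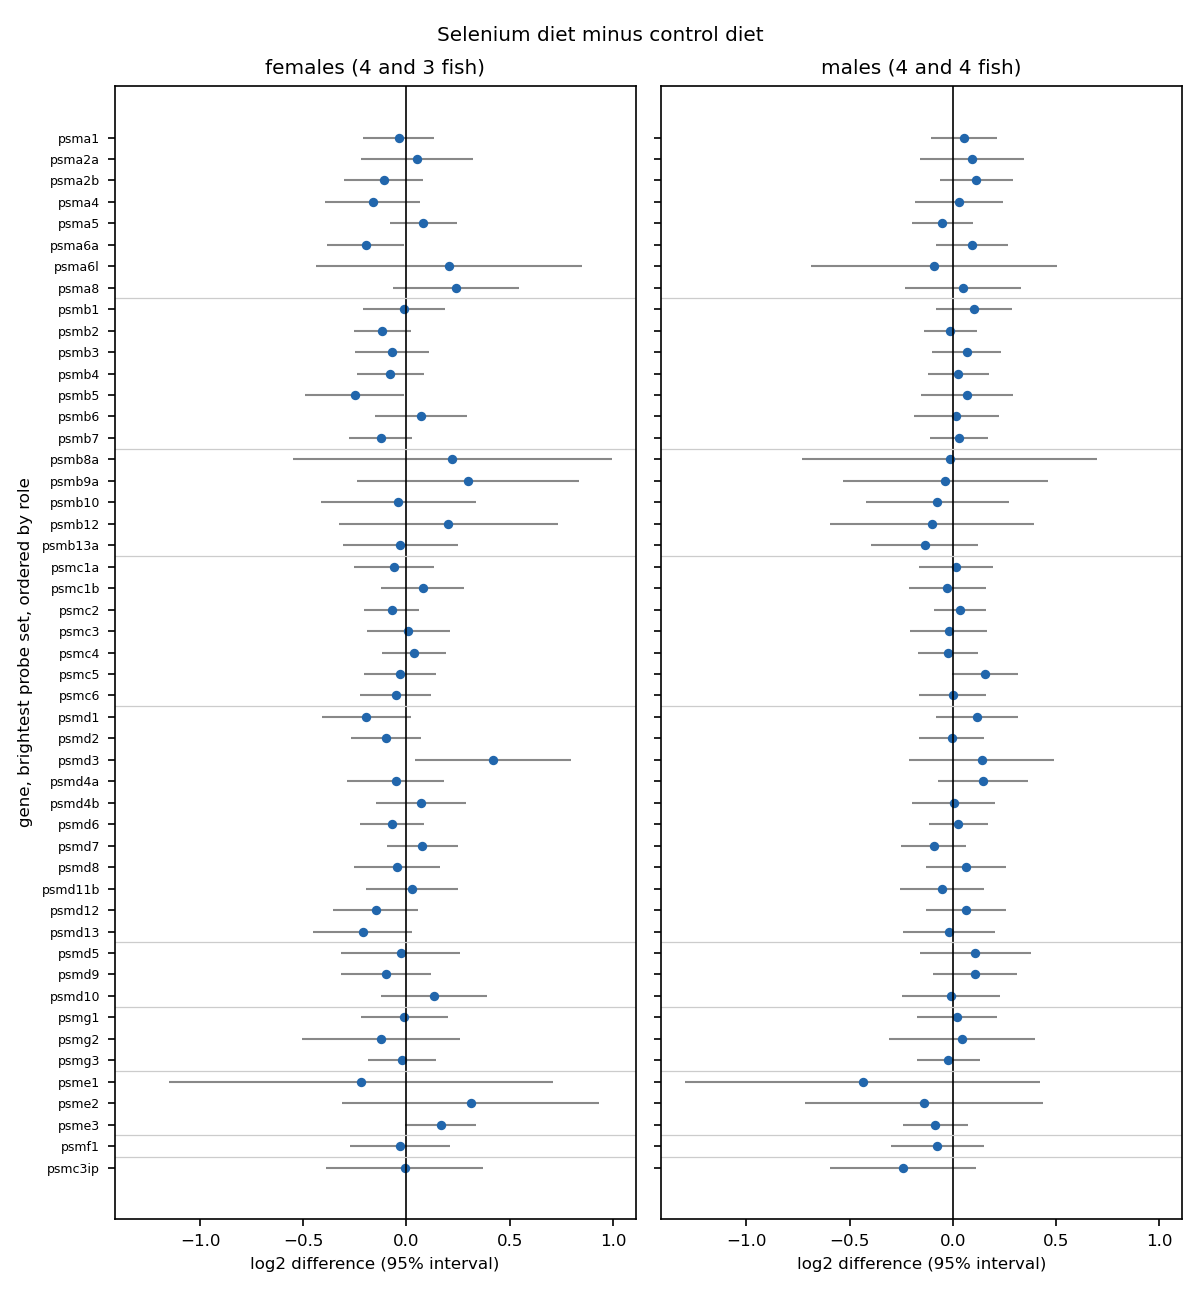
Selenium minus control log2 difference of each of the 49 genes (points) with its 95% interval from limma (lines), in females (left) and males (right), ordered by role with grey lines between roles. Most points lie within 0.25 of 0, and the intervals are widest for psme1, psmb8a and psma6l. Centring the arrays would move all female points by 0.06 to the right, which turns the median of the family from lower to higher.

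In males 26 of the 48 genes were higher on selenium and 22 lower, with a median of 0.02, and after centring the arrays 23 were higher and 25 lower. Before centring, 49.1% of all genes were higher, and centring moved every gene by the same -0.02. limma gave an unadjusted p under 0.05 to 0 of the 48 members and to 5.52% of all genes. The smallest p belonged to psmc5, an ATPase of the cap that also acts in transcription in other species. Control males gave 10.09, 10.18, 10.15 and 10.04 and selenium males 10.10, 10.35, 10.30 and 10.33, so that fish 2, 3 and 4 of the selenium group lay above all controls and fish 1 among them. The difference was 0.16 ± 0.08 (SE), with an adjusted p of 0.94 in limma.

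psmd4a, a ubiquitin receptor of the cap, came next in males, with 10.20, 10.03, 10.22 and 10.16 on the control diet and 10.30, 10.20, 10.16 and 10.52 on selenium. The groups overlapped, and the difference of 0.15 ± 0.10 (SE) was 0.01 when male selenium fish 1, 2 and 4 were left out together, which leaves only fish 3, itself second in muscle signal. With the muscle and retina list means as covariates it was 0.30 instead, and that of psmc5 was 0.30 as well. The remaining members of smallest p in males were psma2b (0.11), psmd1 (0.12), psmd7 (-0.09) and psmb1 (0.10), each with an adjusted p of 0.94 in limma. With the same covariates psma2b became 0.26, psmd1 -0.095, psmd7 0.11 and psmb1 0.19. Of the muscle genes 29 of 30 and of the retina and lens genes 29 of 34 were higher in selenium males than in control males, and their part in these differences was not tested beyond fitting both lists as covariates. That fit moved the median of the 48 members in males to 0.11 and called 0 members. The highest means of both lists were those of selenium males, so in males this fit cannot cleanly part them from the diet.

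Averaged over both sexes the family showed 24 genes higher and 24 lower (48.8% of all genes were higher), and limma's unadjusted p under 0.05 fell on 1 of 48 members and 4.9% of genes. After psmd3, the smallest p belonged to psmd13 (-0.12), psma8 (0.14), psmb2 (-0.06), psmb5 (-0.09) and psmc5 (0.06), with adjusted p from 0.97 to 0.98 in limma. psma8, an alpha-ring subunit, was bright in these brains, with a mean signal of 11.19.

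The diet difference in females minus that in males asks whether the sexes responded unlike each other. It was above 0 for 21 of 48 members and below 0 for 27, with a median of -0.05. Before centring, 51.3% of all genes were above 0. Centring the arrays added the same 0.08 to every gene, and the median of the family became 0.03. An unadjusted p under 0.05 in limma fell on 3 of the 48 members and on 8.52% of all genes, and the smallest adjusted p was 0.57. The 3 were psma6a (-0.29 ± 0.12 SE), psme3 (0.25 ± 0.11 SE) and psmd1 (-0.31 ± 0.14 SE), followed by psmb5 (-0.32 ± 0.15 SE), psma2b (-0.22 ± 0.12 SE) and psmc5 (-0.18 ± 0.11 SE). With the gapdh measure as a covariate psme3 became 0.14, psma2b -0.11 and psmc5 -0.11. psmd1 shows the pattern: 10.73, 11.05 and 10.92 in control females, 10.69, 10.74, 10.86 and 10.53 in selenium females, 10.75, 10.61, 10.66 and 10.59 in control males, and 10.84, 10.90, 10.77 and 10.59 in selenium males. Selenium lay with the lower values in females and the higher in males, and the ranges overlapped in both sexes. The second probe set of psmd1 gave -0.11 for the same quantity, closer to 0 than the first, and the first gave -0.14 with the muscle and retina means as covariates.

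All 3 activator genes and all 5 inducible beta genes had a diet difference that was more positive in females than in males. For the inducible genes these excesses ran from 0.04 (psmb10) to 0.33 (psmb9a), and for the activators from 0.22 (psme1) to 0.45 (psme2). Only psme3 among these 8 had an unadjusted p under 0.05 in limma, and their adjusted p lay between 0.59 and 0.97. The 8 are not separate observations, since 4 of the inducible genes varied together from fish to fish, as described below. Of the 18 leukocyte markers 15 were also above 0 in this comparison. With the muscle and retina means as covariates the direction turned for psmb8a (0.32 in females, 0.38 in males). It also turned for psmb10 (-0.026 and 0.011) and psmb13a (0.0046 and 0.029), while psmb9a, psmb12 and the activators kept it.

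Females and males were compared over both diets. limma called 22 probe sets (0.142%) between the sexes, and no proteasome gene was among them. Of the 48 members 31 were higher in females and 17 higher in males, with a median of 0.06, against 55.8% of all genes higher in females and a median of 0.02 over all genes. The median of the family was also above 0 when the arrays were centred (33 higher and 15 lower, median 0.06), and was 0.01 with the muscle and retina means as covariates. An unadjusted p under 0.05 in limma fell on 7 of 48 members and on 15% of all genes, so the share of the family was near that of the array. All 7 were higher in females.

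The smallest p between the sexes belonged to psmd10, which encodes gankyrin, a chaperone of the cap. Females gave 8.13, 8.20 and 8.07 on the control diet and 8.31, 8.09, 8.38 and 8.31 on selenium. Males gave 7.97, 7.71, 8.27 and 7.86 on the control diet and 7.85, 8.01, 7.82 and 8.08 on selenium. All 7 females lay at or above 8.07, and 6 of 8 males lay below that, with male control fish 3 and male selenium fish 4 as the exceptions. The sex difference was 0.26 ± 0.08 (SE), a ratio of 1.19, with an unadjusted p of 0.0071 and an adjusted p of 0.17 in limma.

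psmc1a, an ATPase of the cap, followed with a sex difference of 0.18 ± 0.06 (SE) and an adjusted p of 0.18 in limma. Its female values ran from 10.78 through a median of 10.89 to 11.07 and its male values from 10.57 through 10.71 to 10.92. 2 females lay above every male, and the ranges overlapped. With the gapdh measure as a covariate the psmc1a difference was 0.13. psme3 differed by 0.15 ± 0.05 (SE), with females from 10.04 to 10.36 and males from 9.96 to 10.21, but by 0.06 with the gapdh measure as a covariate.

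psmd3 differed between the sexes by 0.33 ± 0.12 (SE), with females from 6.95 to 7.89 and males from 6.69 to 7.40, and by 0.20 with the leukocyte signal described below as a covariate. psma5, an alpha-ring subunit, differed by 0.14 ± 0.05 (SE), with females from 9.84 to 10.03 and males from 9.67 to 9.93, and 6 of 7 females lay above all 8 males. With the muscle and retina means as covariates it differed by 0.06, and 29 of 30 muscle genes were lower in females. psmg1, a chaperone of the core, differed by 0.16 ± 0.07 (SE) from its brighter probe set, while the other gave -0.16, and the inducible psmb10 by 0.26 ± 0.12 (SE). The adjusted p of these genes ran from 0.22 to 0.32 in limma.

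**Figure D3:**
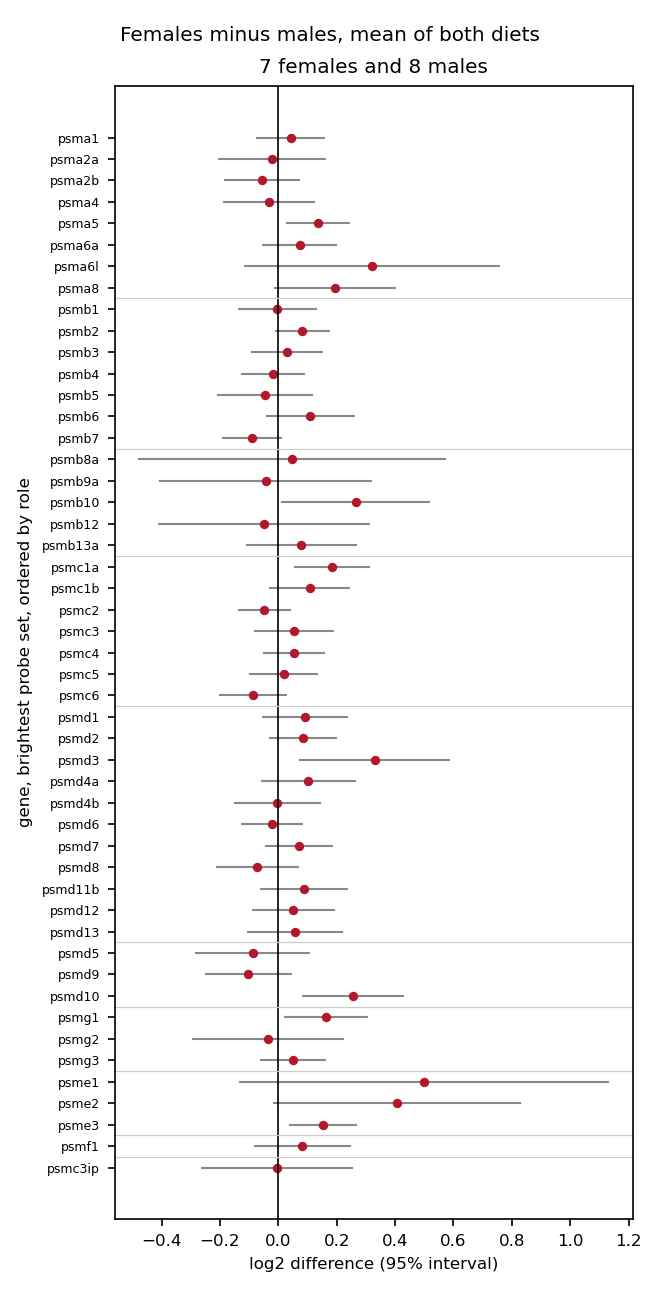
Female minus male log2 difference of each of the 49 genes averaged over both diets (points), with its 95% interval from limma (lines), ordered by role with grey lines between roles. The intervals of psmd10, psmc1a, psme3, psmd3, psma5, psmg1 and psmb10 lie above 0 before adjustment, and no gene passed after it.

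The probe sets of a gene did not always give the same sign. Of the 7 genes with more than 1 probe set, the sign of the difference disagreed for 2 in females, 5 in males, 4 in the mean of both sexes, 4 in the difference of the diet effects and 3 between the sexes. The 7 include psmc3ip, whose second probe set had a mean signal of only 3.48. It is among those that disagreed in males, in the mean of both sexes and in the difference of the diet effects. The clearest case was psmf1: the brighter probe set, with a mean signal of 8.74, gave a sex difference of 0.08, while the dimmer, with 7.30, gave -0.49 with an unadjusted p of 3e-04 and an adjusted p of 0.078 in limma. psmd9, a cap chaperone, gave -0.10 from its brighter and -0.29 from its dimmer probe set, with the same sign in both. psmc1b disagreed in each of the 5 comparisons, and psmd12 in all but the sex comparison. The 2 probe sets of psmg1 disagreed in sign between the sexes (0.16 and -0.16). psmc3ip, the gene that is no proteasome subunit, was dim at 5.09 and differed by -0.01 in females and -0.24 in males. The brightest probe set of psmc1b is of a kind that can detect several transcripts, and signals of the close pairs psmc1a and psmc1b, psma2a and psma2b, and psmd4a and psmd4b may be shared.

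The interferon-responsive activator varied widely from fish to fish within groups. psme1 was 10.08, 8.96 and 9.17 in control females, 8.65, 10.54, 8.90 and 8.64 in selenium females, 8.65, 8.59, 8.91 and 9.91 in control males, and 8.63, 8.55, 8.72 and 8.42 in selenium males. Female control fish 1, female selenium fish 2 and male control fish 4 stood at 9.91 or above, and the other 12 fish at 9.17 or below. The diet differences were -0.22 ± 0.43 (SE) in females and -0.44 ± 0.40 (SE) in males, and each rests on whether such a fish fell into a group: leaving out female control fish 1 turned the female value to 0.12, and leaving out female selenium fish 2 took it to -0.67. Between the sexes psme1 differed by 0.50 ± 0.30 (SE, adjusted p 0.46 in limma), with the female higher in 45 of 56 pairs of a female and a male.

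psme2, the partner of psme1 in the activator ring, was 9.36, 8.62 and 8.73 in control females, 8.94, 9.76, 8.94 and 9.21 in selenium females, 8.30, 8.67, 8.64 and 9.26 in control males, and 8.73, 7.88, 8.94 and 8.76 in selenium males. Its sex difference was 0.41 ± 0.20 (SE, adjusted p 0.36 in limma), with the female higher in 41 of 56 pairs, and these were the 2 largest sex differences of the 48 members. The 3 highest values of psme2 came from the same 3 fish. So did those of psma6l, with 7.38, 8.10 and 7.23 in these fish and at most 7.15 in the others. psmb10 was highest in female selenium fish 2 (10.13) and female control fish 1 (9.88), while male control fish 4 (9.71) was level with several other fish. No selenium male was among the high fish.

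These 3 fish also carried the most leukocyte signal. The mean of 18 leukocyte markers was 8.49, 8.81 and 8.33 in them and 8.28 or below in the other 12. For 9 of the 18 leukocyte markers, ptprc, coro1a, lcp1, cd74a, cd74b, laptm5, arpc1b, c1qc and lgals9l1, the 3 highest fish were these 3, and so they were for 6 of 18 antigen-processing genes, among them b2m, the light chain of MHC class I, and the transcription factors irf1b and irf9. Across the whole array the same 3 fish were highest for 71 of 8793 genes (0.807%), and for 3 of the 49 members (psme1, psme2 and psma6l). The 3 fish were picked by psme1, so its own place in this count was fixed beforehand. The pattern was noticed after the values were seen, the 3 fish come from 3 groups, and no test was made of it.

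The leukocyte signal also differed between the groups. It ranged from 7.84 to 8.49 in control females, 7.97 to 8.81 in selenium females, 7.75 to 8.33 in control males and 7.65 to 7.90 in selenium males. Between the sexes 15 of the 18 markers were higher in females (median 0.42), and none passed in limma, with 7 at an unadjusted p under 0.05, against 55.8% of all genes higher in females and 15% at that p. Log2 array values have no 0. Of the leukocyte markers csf1ra lay at the floor with a mean signal of 4.02, ptprc, the common leukocyte antigen, had 6.59 and coro1a 9.68. Fitted as a covariate, chosen after the psme1 values were seen, the leukocyte mean raised the psmd10 sex difference from 0.26 to 0.34 and gave 0.19 for that of psmc1a, and it moved the male diet difference of psme1 from -0.44 to -0.11 and that of psme2 from -0.14 to 0.03.

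**Figure D4:**
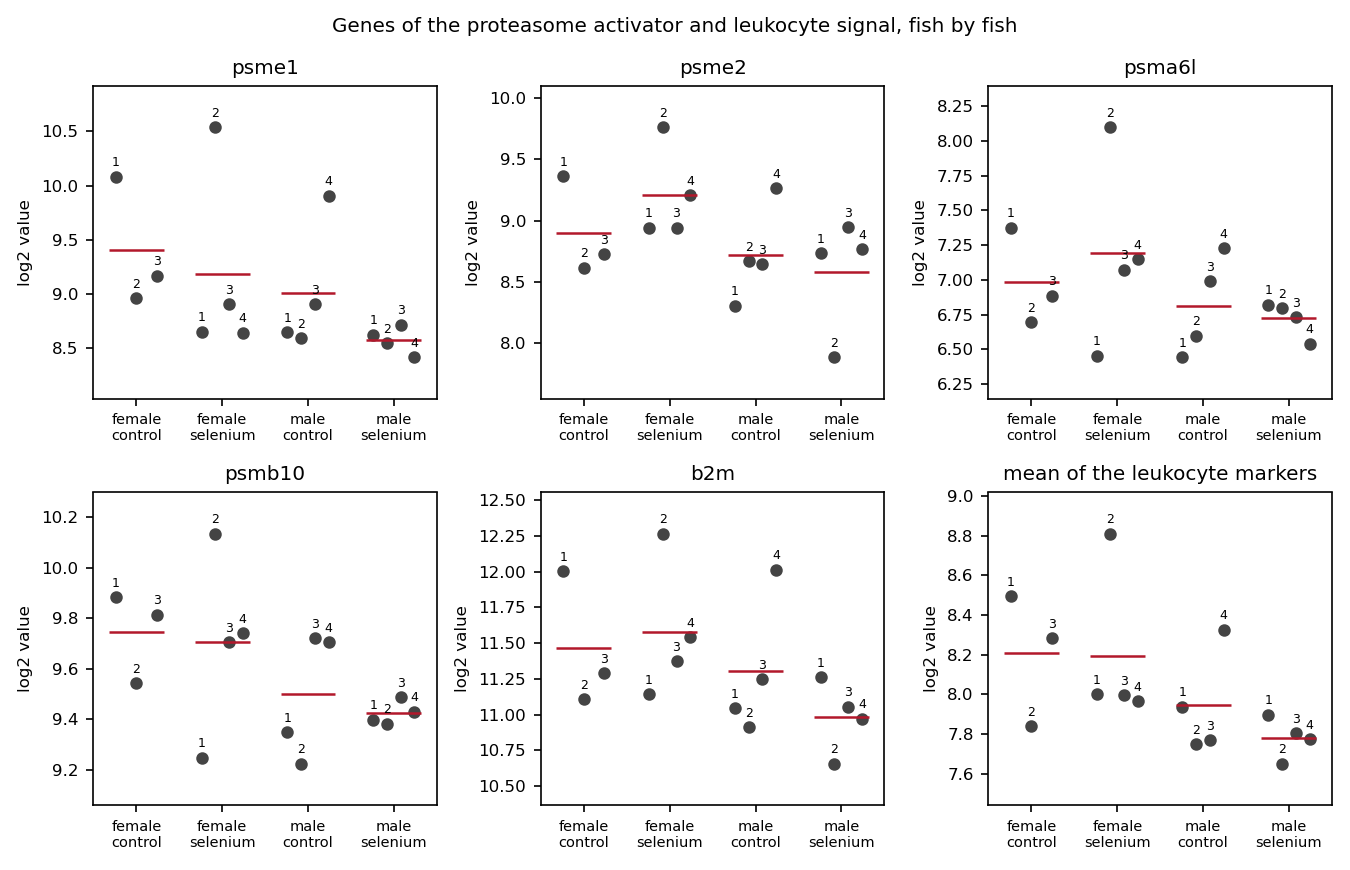
Log2 values of psme1, psme2, psma6l, psmb10, b2m and the mean of 18 leukocyte markers in each fish (points, numbered by replicate) by group, with red lines for the group means. Female control fish 1, female selenium fish 2 and male control fish 4 hold the 3 highest values for psme1, psme2, psma6l, b2m and the leukocyte mean.

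The inducible beta genes fell into 2 sorts. psmb10, which encodes the inducible form of the trypsin-like site, was bright with a mean of 9.58. Its values were 9.88, 9.54 and 9.81 in control females, 9.25, 10.13, 9.70 and 9.74 in selenium females, 9.35, 9.22, 9.72 and 9.71 in control males, and 9.40, 9.38, 9.49 and 9.43 in selenium males. Most females lay above most males, and the diets overlapped in both sexes.

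The other 4, psmb8a, psmb9a, psmb12 and psmb13a, were dim, with mean signals of 4.90, 5.32, 4.96 and 4.31, close to the 4.09 to 4.21 of the dimmest probe sets, so that small changes near the floor are compressed. psmb8a and psmb9a encode the inducible counterparts of psmb5 and psmb6, and psmb12 and psmb13a are further genes of this class in fish. In the gene table they stand in a row as psmb8a, psmb13a, psmb12 and psmb9a, with tapbp.1, mhc1uka, tapbp.2 and mhc1uba on one side and tap2a and brd2a on the other, which is the core MHC region. This region is known in zebrafish to carry haplotypes that differ in their set of such genes. No genotype was analysed here.

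psmb8a was 4.43, 4.59 and 5.40 in control females, 5.15, 4.48, 4.76 and 5.72 in selenium females, 4.35, 4.98, 5.76 and 4.43 in control males, and 4.49, 5.25, 4.96 and 4.74 in selenium males. Each group held both low and high fish, and the groups overlapped. The fish with high psmb8a were also those with high psmb12, which was 5.19, 5.51 and 5.47 in female control fish 3, female selenium fish 4 and male control fish 3. None of these is among the 3 fish with high psme1.

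The 95% intervals of the diet differences of the 5 inducible genes all included 0. In females they were 0.22 (95% interval -0.55 to 0.995) for psmb8a, 0.30 (-0.24 to 0.83) for psmb9a, 0.20 (-0.33 to 0.74) for psmb12, -0.03 (-0.31 to 0.25) for psmb13a and -0.04 (-0.42 to 0.33) for psmb10. In males they were -0.02 for psmb8a, -0.04 for psmb9a, -0.10 for psmb12, -0.14 for psmb13a and -0.08 for psmb10, with adjusted p from 0.94 to 0.996. Centring the arrays turned psmb10 and psmb13a positive in females, and with the gapdh measure as a covariate the female differences were 0.11 for psmb8a, 0.096 for psmb9a and 0.094 for psmb12.

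Across the 15 fish, all 10 pairs of inducible genes were examined for correlation. The 6 pairs among the 4 neighbours had Pearson r from 0.72 to 0.91, and Spearman rho from 0.72 to 0.88. All 4 genes lay near the floor, and how often other dim genes vary together as strongly was not examined. The strongest by r was psmb8a with psmb12, with r of 0.91 (permutation p 6e-05, adjusted 6e-04 over 10 pairs) and rho of 0.85 (permutation p 0.00012, adjusted 0.00047), and r of 0.84 without the 2 fish farthest from the median. The weakest was psmb9a with psmb13a, with r of 0.72 (permutation p 0.0025, adjusted 0.0042) and rho of 0.79 (permutation p 6.2e-04, adjusted 0.0015), and r of 0.79 without the 2 farthest fish. Within groups, after the group means were removed, the 6 pairs kept r from 0.80 to 0.92. The 4 pairs of psmb10 with these genes had r from -0.27 to -0.02 and rho from -0.21 to -0.025, with adjusted permutation p of 0.47 to 0.96 for r.

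Genes beside these 4 in the gene table were set against psmb8a, in 7 pairs chosen by position. tapbp.1, which encodes tapasin, the loader of MHC class I, was negatively related to psmb8a, with r of -0.64 (permutation p 0.0073, adjusted 0.025) and rho of -0.68 (permutation p 0.0067, adjusted 0.023), and r of -0.68 without the 2 farthest fish. tapbp.1 was also highest in the 3 fish with the most leukocyte signal (8.98, 9.36 and 8.90), where psmb8a was low (4.43, 4.48 and 4.43), and the part of that signal in the relation was not tested. brd2a, a chromatin reader on the other side, gave r of -0.72 (permutation p 0.0043, adjusted 0.025) and rho of -0.81 (permutation p 5e-04, adjusted 0.0035), and r of -0.79 without the 2 farthest fish. rxrba, farther out, gave r of -0.56 (permutation p 0.033, adjusted 0.076) and rho of -0.60 (permutation p 0.02, adjusted 0.047), and r of -0.75 without the 2 farthest fish. The signal of rxrba was dim, from 4.21 to 5.12, so both genes of this pair lay near the floor. For mhc1uka, hsd17b8, col11a2 and sdha r lay between 0.13 and 0.24, with adjusted permutation p from 0.58 to 0.63. These fish belong to 4 groups, and with the group means removed r was -0.71 for tapbp.1, -0.76 for brd2a and -0.81 for rxrba. How often genes elsewhere on the array relate to psmb8a as strongly was not examined, so no effect of position is read from these pairs.

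**Figure D5:**
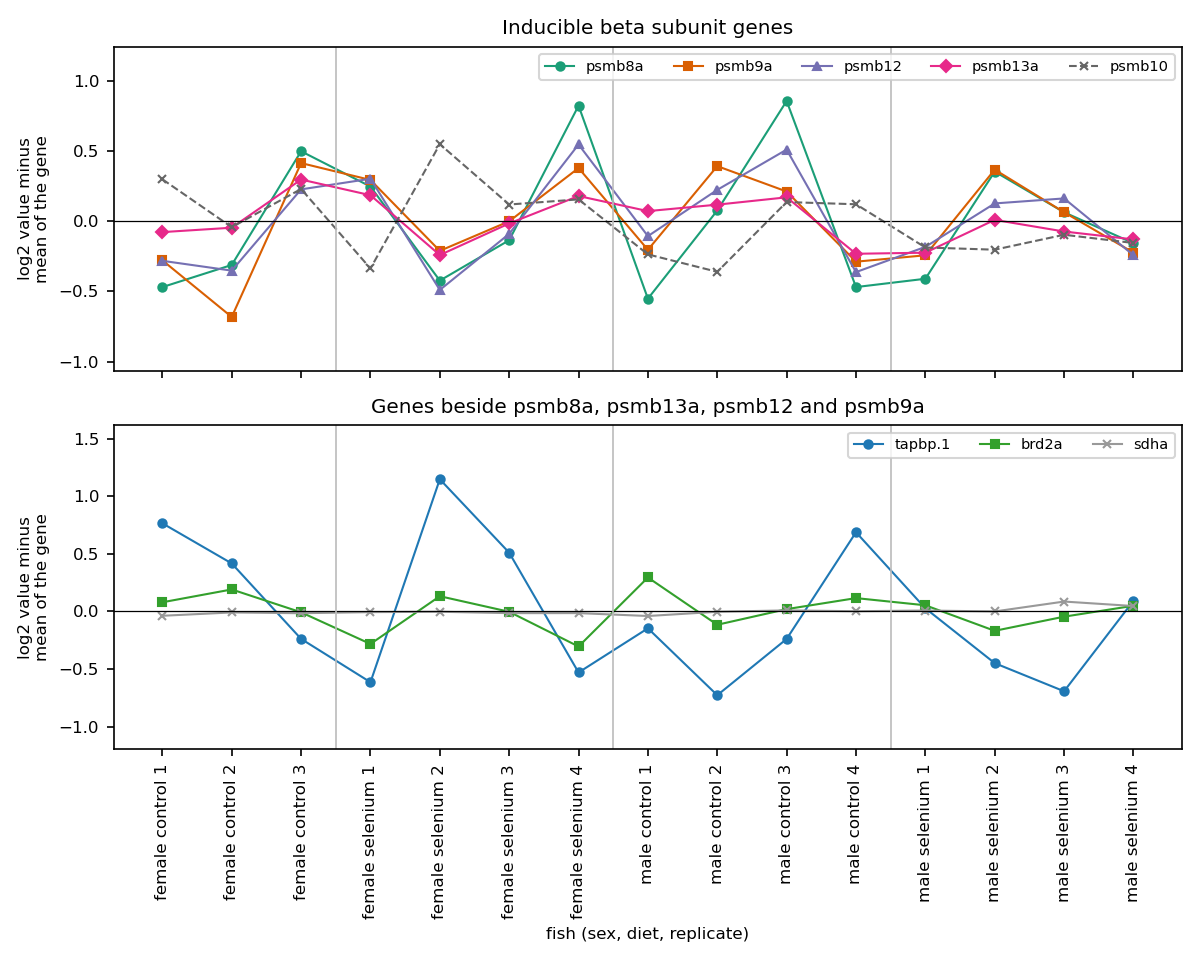
Log2 value minus the mean of the gene over 15 fish for the 5 inducible beta genes (top) and for 3 genes that lie beside 4 of them in the gene table (bottom), fish by fish, with grey lines between groups. psmb8a, psmb9a, psmb12 and psmb13a rise and fall together from fish to fish, psmb10 (dashed) has its peaks in other fish, and tapbp.1 and brd2a tend the other way; the lines join separate fish and show no order.

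The genes around the proteasome were examined by lists of known function. In none of the 7 lists did a gene pass limma's threshold in any comparison. In selenium females an unadjusted p under 0.05 fell on 2 genes each of the ubiquitin-attaching, partner and shuttle lists, on 1 transcription factor, and on 0 genes of the other 3 lists, against 7.92% of all genes. Of the ubiquitin genes 4 of 6 were measured, with 1 higher and 3 lower in selenium females and 4 higher in selenium males. Of the genes that activate and attach ubiquitin 17 of 23 were measured, with 11 higher and 6 lower in females and 7 higher and 10 lower in males. Those of smallest p were uba2, which activates the modifier SUMO (sex difference 0.25 ± 0.07 SE, adjusted p 0.15), the conjugating enzyme ube2d3 (sex difference 0.14 ± 0.05 SE), the ligase huwe1 (sex difference -0.28 ± 0.10 SE) and the conjugating enzyme ube2g1a (diet difference in females 0.42 ± 0.15 SE, adjusted p 0.53).

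Of the shuttle and p97 genes, which carry ubiquitin-tagged proteins to the proteasome, 17 of 24 were measured, and 8 were higher and 9 lower in selenium females. ubxn4, an adaptor that ties p97 to the endoplasmic reticulum, had the greatest difference of these lists. It was 5.69, 6.61 and 5.64 in control females and 7.99, 6.93, 8.15 and 7.61 in selenium females. The groups did not overlap. The difference was 1.69 ± 0.38 (SE), with an unadjusted p of 6e-04 and an adjusted p of 0.34 in limma. In males ubxn4 was 6.70, 6.50, 5.94 and 6.60 on the control diet and 6.17, 6.83, 7.67 and 6.16 on selenium, which overlap. ubxn6, another p97 adaptor, differed by -0.43 ± 0.12 (SE) in females (adjusted p 0.44), and nsfl1c, a p97 cofactor, by 0.20 ± 0.07 (SE) between the sexes (adjusted p 0.20).

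Of 14 measured partners of the proteasome, 5 were higher and 9 lower in selenium females. akirin2, which in human cells brings proteasomes into the nucleus, was 9.88, 10.02 and 10.08 in control females and 10.12, 10.33, 10.14 and 10.36 in selenium females. It was 10.18, 10.03, 9.94 and 9.98 in control males and 9.80, 9.82, 9.97 and 9.87 in selenium males. In females all selenium fish lay above the controls, and in males all but fish 3 lay below them. The difference of the diet effects was 0.41 ± 0.12 (SE), with an unadjusted p of 0.0039 and an adjusted p of 0.50 in limma. zfand5a, which in mammals activates the proteasome, had a sex difference of -0.24 ± 0.08 (SE) and a diet difference in males of -0.29 ± 0.10 (SE), with adjusted p of 0.17 and 0.94. pithd1 had a difference of the diet effects of -0.43 ± 0.17 (SE) with an adjusted p of 0.56.

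Transcription factors linked to proteasome genes were measured for 7 of 18, and nfe2l1a and nfe2l1b were not among them. In selenium females 4 were higher and 3 lower, and in selenium males 1 was higher and 6 lower. The difference of the diet effects was above 0 for 6 and below 0 for 1, against 51.3% of all genes above 0. These counts were not tested. maff, a small partner of such factors, was 9.65 ± 0.12 (SD, n = 3) in control females, 9.89 ± 0.09 (SD, n = 4) in selenium females, 9.98 ± 0.03 (SD, n = 4) in control males and 9.80 ± 0.06 (SD, n = 4) in selenium males. The diet effects differed between the sexes by 0.41 ± 0.10 (SE), with an adjusted p of 0.47 in limma. hsf2, a heat shock factor, had a sex difference of -0.31 ± 0.10 (SE) with an adjusted p of 0.18, and nfe2l3, a relative of NFE2L1, of 0.20 ± 0.09 (SE) with an adjusted p of 0.29.

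Targets of NFE2L2 were measured for 6 of 14, with 5 higher and 1 lower in selenium females and 2 higher and 4 lower in selenium males. gsr, which encodes glutathione reductase, had the smallest p, at 8.27 ± 0.25 (SD, n = 4) in control males and 8.74 ± 0.05 (SD, n = 4) in selenium males, a difference of 0.47 ± 0.21 (SE) with an adjusted p of 0.94 in limma. Of 18 measured antigen-processing genes 12 were higher in selenium females and 8 in selenium males, and the smallest adjusted p was that of pdia3, a chaperone of the peptide-loading complex, between the sexes (0.18 ± 0.06 SE, adjusted p 0.18).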

How the data were processed

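Whole-brain RNA of 15 zebrafish was measured on Affymetrix GeneChip arrays. Each deposited value is the log2 signal of a probe set, which the authors obtained with RMA and affy, per the submitters' processing notes. RMA corrects background, gives all arrays the same distribution and summarises probes. Which versions were used, and whether further arrays were normalised alongside, is not stated in the labels. The values were used without further scaling.

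Of 15617 probe sets, 115 manufacturer controls were left out. The platform annotation gave 1 symbol to 10795 of the remaining 15502, several to 135 and none to 4572. Symbols were updated through the Entrez ID in a table of assembly GRCz12tu, which changed no member. That table also gave the order of neighbouring genes, and no coordinates are printed. No sequence is shown.

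A model of 4 group means covered all arrays (limma 3.58.1, R 4.3.3, 11 residual degrees of freedom, 13.8 after moderation), for 5 two-sided contrasts. The p-values were adjusted by Benjamini-Hochberg over 15502 probe sets, with a threshold of 0.05. No filter on signal was applied. Lists were described by counts and medians without a test. Correlations across fish used 100000 permutations (scipy 1.17.1), adjusted within each family of pairs. The fit was tested on simulated data.

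Named singly were the 6 members of smallest p in each comparison, the inducible and cutting beta subunits, and members whose probe sets disagree in sign. Up to 4 genes of smallest p per pathway list were added. Some of these are given fish by fish, and others only by differences, intervals or ranges. Members and lists were chosen with earlier results of these data known. The number of fish limits the precision, and residual SDs had a median of 0.17 over probe sets.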

Additional observations from a re-analysis of the deposited data

Results flagged for a closer look

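The highest and lowest fish of each group of 4 were set against the others by Dixon's criterion, for the 49 genes and the mean of the 43, which made 150 groups. Chance alone marks about 1 group in 20, and 9 values were marked, close to that share. Some fish were marked for more than 1 gene, and the groups share the same arrays, so they are not separate observations. psme1 was 10.54 in female selenium fish 2, against 8.64 to 8.90 in the other 3 fish of that group. psme3 was 10.19 in female selenium fish 3 (others 10.34 to 10.36) and psmb1 was 11.45 in female selenium fish 2 (others 11.72 to 11.76). psmc1b was 9.48 in female selenium fish 1 (others 9.63 to 9.67), and psmd4b was 8.64 in female selenium fish 3 (others 8.96 to 9.02). psma2b was 9.70 in male control fish 2 (others 9.95 to 9.96). Among selenium males, psmd11b was 9.86 in fish 2 (others 10.10 to 10.12), psmg1 was 9.19 in fish 2 (others 8.97 to 9.01) and psmb7 was 12.17 in fish 1 (others 12.31 to 12.32).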

How the results depend on the processing

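No member was called by its brightest probe set under any alternative tried. Among the members followed through the alternatives, the smallest adjusted p in limma was 0.105 (psmd10, between the sexes). The dimmer probe set of psmf1 had a smaller adjusted p between the sexes in the main fit, as given above. It was not followed by itself under the alternatives. The alternatives were centred arrays, repeated quantile normalisation, only probe sets with a mean of at least 5 (which drops psmb8a, psmb12 and psmb13a), the mean over a gene's probe sets, an intensity trend, array weights, gapdh or muscle and retina covariates, and fish left out. A leukocyte covariate and psmc3ip as a member were added after seeing the data. With the arrays centred, the median of the 48 genes was 0.030 in females and 0.032 for the difference between the sexes' diet effects, psmb10 and psmb13a in females turned to 0.021 and 0.030, and psmb6 in males to -0.0022. With the gapdh covariate these medians were 0.021 and 0.0055, psmb10 in females was 0.017, and psmb8a and psmb9a in males were 0.015 and 0.017. Array weights gave 0.062 for psmb13a in females and 0.020 for psmb8a in males. With muscle and retina means as covariates psmb13a in females was 0.0046, the male median 0.11, and in males psmd1 was -0.095, psmd7 0.11, psmb8a 0.38, psmb9a 0.19, psmb10 0.011, psmb12 0.24, psmb13a 0.029 and psme2 0.20. Without male selenium fish 1, 2 and 4 the male values were 0.054 for psmd7, -0.034 for psmb1, -0.050 for psmb5, 0.086 for psmb8a, 0.036 for psmb9a, 0.096 for psmb12 and 0.22 for psme2. The leukocyte covariate gave -0.010 for psmb6, 0.019 for psmb10 and 0.033 for psme2 in males.

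Over the whole array, the 22 probe sets called between the sexes became 39 with an intensity trend, 57 with array weights, 5 with gapdh, 1 with muscle and retina means, 7 without male selenium fish 1, 2 and 4, and 7 with the leukocyte covariate. The diet comparisons, with 0 called, gave 1 for the mean of both sexes with muscle and retina means. Without male selenium fish 1, 2 and 4, which leaves 1 fish in that group (taken to vary as the other groups do) they gave 1 in females, 15 in males, 17 for the mean and 3 for the difference of the diet effects. The cause of these changes was not tested.

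With 1 fish left out at a time, between 2 and 64 probe sets were called between the sexes (without male selenium fish 3 and female selenium fish 3), 0 to 5 in females (5 without female control fish 3) and 0 to 3 for the mean. In females psmb6 ranged from -0.0053 to 0.14, psmb8a from -0.0096 to 0.52, psmb10 from -0.18 to 0.11, psmb13a from -0.098 to 0.089 and psme1 from -0.67 to 0.12. In males psmb6 ranged from -0.040 to 0.068, psmb8a from -0.19 to 0.28, psmb9a from -0.16 to 0.085, psmb12 from -0.24 to 0.048 and psme2 from -0.28 to 0.094. No paired analysis was possible because each number belongs to a single fish. Probe sets near the floor, such as psmb8a, psmb9a, psmb12 and psmb13a, limit what could be seen of these genes.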
